A study of Rattus norvegicus with 12 samples.

Results

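Macrophage marker genes were followed in primary ventricular cardiomyocytes of newborn rats that had received an adenovirus. The 10 genes are Cd68, Cd163, Mrc1, Csf1r, Adgre1, Aif1, C1qa, C1qb, C1qc and Ptprc, each found by its symbol in the table of raw read counts per gene. They are 10 of the 32883 genes of that table, and all 10 passed the filter on low counts that left 14063 genes for testing. They were chosen by name, as known markers of macrophages, and not by a threshold on their values. The choice was made with earlier results of these data known, as was that of the wider lists. The 12 libraries form 4 groups of 3, and every library comes from cells that carried an adenovirus for 2 days. The control virus expressed LacZ, a bacterial enzyme, and the others expressed human KAT6A, a lysine acetyltransferase, as the wild type (WT), as K815R, a mutant that resists acetylation, or as K815Q, a mutant that mimics it. The labels do not say whether the 3 replicates were separate cultures or pooled animals, so the p-values measure the spread between these libraries, which may be technical.

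Tissue macrophages are phagocytes that live in most organs, the heart included, where they take up dying cells and debris. They depend on signals through the receptor encoded by Csf1r, whose ligands are made by neighbouring stromal cells. Primary heart cell cultures can hold some of them beside muscle cells, fibroblasts and endothelial cells, and in a bulk sample fewer cells of a type and less RNA per cell cannot be told apart.

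Each library held 19102048 to 25451686 reads counted in genes, so that 3 reads, the floor used here, were worth 0.118 to 0.156 CPM (reads relative to the library's gene reads, scaled by TMM factors of 0.968 to 1.02). The 11 cardiomyocyte genes with a row summed to 45942 to 51773 CPM per library, so genes of the labelled cell type were abundant, and 10 fibroblast genes to 11048 to 12889 CPM. Kat6a reads averaged 48.1 ± 4.75 CPM (SD, n = 3) in LacZ, 93.0 ± 12.3 in WT and 108 ± 11.7 in K815R, but 46.3 ± 3.35 in the libraries labelled K815Q. Kat6a reads were thus not raised under that label (log2 fold change -0.05), so these libraries are named by their label throughout. Prkaa2, a catalytic subunit of AMPK, averaged 1168 ± 55.4 CPM there against 60.9 ± 10.2 in LacZ. Prkaa2 was also higher with WT, at 519 ± 102 CPM (log2 fold change 3.09 against LacZ). With K815R it averaged 87.2 ± 8.70 CPM. The cause of these Prkaa2 values, and their part in the comparisons with WT and with the K815Q label, was not tested. One library stood apart for the markers: LacZ replicate 2 was the lowest of the 3 LacZ libraries for 7 of the 10 genes and the lowest of all 12 for 5. For several genes and lists, values are also given without it.

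All 10 genes were detected in all 12 libraries, with 16 to 503 reads per gene and library. Markers of lymphocytes and neutrophils were sparse. The T and NK cell genes summed to 0.773 to 1.66 CPM per library, with Cd5 and Gzmb at 0 reads in all 12 and Cd3e at 1 read in a single one. The B cell genes summed to at most 0.272 CPM, and the neutrophil genes to 0.711 to 1.66 CPM. The mast cell genes summed to 44.0 to 52.3 CPM, almost all from Kit, which other heart cells express too, and Fcer1a, Ms4a2 and Cma1 had 0 reads in all 12 libraries. A count of 0 allows up to the floor of 3 reads in a library. The dendritic cell genes summed to 32.0 to 32.4 CPM in LacZ and 27.3 to 29.6 CPM in the other libraries, most of it from Cd1d1, which fell with K815R by 0.26 on the log2 scale (adjusted p = 0.0288). The platelet and erythroid genes summed to 4.21 to 11.5 CPM. Hbb, a globin gene of red cells, had 49 to 215 reads per library. On the log2 scale Hbb fell by 1.39 with WT (adjusted p = 0.00156). It fell by 0.74 under the K815Q label (adjusted p = 0.0401). With K815R it was 1.00 higher than with WT (adjusted p = 0.0367). The part of these cells in the marker values was not tested. Ptprc, the gene of the leukocyte phosphatase CD45, was thus read next to macrophage genes and few reads of lymphocyte genes.

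The promoters of 4 of the 10 genes are shown because Adgre1 is the single marker that passed the test against LacZ, Mrc1 was the marker with the most reads, and C1qa and C1qb encode chains of one protein and varied together (r = 0.69 over the 12 libraries). Each sequence holds the 250 bases before the RefSeq start, read 5′ to 3′ on the gene's strand in build GRCr8. They are Adgre1 at chr9:2329190-2329439 on the plus strand, Mrc1 at chr17:82157475-82157724 on the plus strand, C1qa at chr5:154419934-154420183 on the minus strand and C1qb at chr5:154407828-154408077 on the minus strand. Capitals mark GAGGAA, the core bound by PU.1 (the myeloid transcription factor encoded by Spi1), or its reverse complement TTCCTC. In Adgre1 the first run of capitals is instead a match to the core of the interferon-stimulated response element, which is GAAA, then 2 bases of any kind, then GAAA again, searched on both strands as well. The 2 runs in Adgre1 do not overlap.
Adgre1: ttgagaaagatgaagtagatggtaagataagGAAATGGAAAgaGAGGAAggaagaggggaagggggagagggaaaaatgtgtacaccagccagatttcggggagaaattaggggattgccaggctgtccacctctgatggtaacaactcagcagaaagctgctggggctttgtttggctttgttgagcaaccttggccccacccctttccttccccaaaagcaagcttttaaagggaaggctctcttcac
Mrc1: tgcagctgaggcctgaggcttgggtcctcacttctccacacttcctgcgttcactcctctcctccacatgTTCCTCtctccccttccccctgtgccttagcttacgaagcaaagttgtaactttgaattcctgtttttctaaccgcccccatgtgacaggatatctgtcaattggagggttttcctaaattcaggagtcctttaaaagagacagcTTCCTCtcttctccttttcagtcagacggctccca
C1qa: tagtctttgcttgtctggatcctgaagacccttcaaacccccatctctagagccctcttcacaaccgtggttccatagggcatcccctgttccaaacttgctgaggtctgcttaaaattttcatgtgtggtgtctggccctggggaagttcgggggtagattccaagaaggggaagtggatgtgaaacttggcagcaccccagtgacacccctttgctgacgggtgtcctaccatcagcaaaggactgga
C1qb: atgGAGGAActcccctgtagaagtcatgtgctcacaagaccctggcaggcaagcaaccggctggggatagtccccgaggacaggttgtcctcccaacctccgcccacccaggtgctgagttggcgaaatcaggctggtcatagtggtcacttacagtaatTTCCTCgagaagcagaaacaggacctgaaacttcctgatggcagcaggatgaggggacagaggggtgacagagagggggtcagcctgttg

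Promoters of 8 of the 10 genes were matched in the RefSeq table. The PU.1 core occurred in 6 of the 8 windows (Cd68, Mrc1, Csf1r, Adgre1, C1qb and Ptprc), and in 23.3% of all 33469 promoter windows of the same length. The interferon-type motif occurred in 1 of the 8 (Adgre1), and in 3.41% of all windows. In Adgre1 both runs lie more than 200 bases before the start. C1qa, on the same chromosome and strand as C1qb, held neither motif in its window while C1qb held the PU.1 core at 2 places. These matches describe letters in the windows, and binding was not measured.

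Adgre1, which encodes the adhesion receptor known as F4/80, was the marker whose direction ran against most of the others. Its level was 3.27, 2.94 and 3.20 CPM in the LacZ libraries, 2.28, 2.27 and 2.57 CPM with WT, 2.83, 2.72 and 2.32 CPM with K815R, and 2.29, 2.23 and 1.93 CPM in the libraries labelled K815Q. All 9 libraries labelled with a KAT6A virus lay below all 3 LacZ libraries, an ordering seen for 3.53% of the genes tested. Kat6a reads were not raised in the 3 labelled K815Q. Against LacZ, Adgre1 fell in the libraries labelled K815Q by 0.54 on the log2 scale (SE 0.16, 95% interval -0.87 to -0.22, adjusted p = 0.0356, edgeR's quasi-likelihood test, Benjamini-Hochberg over all 14063 genes). No other of the 10 markers was called in that comparison, in which 7.85% of all genes were called and 4.98% were called lower.

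That call was not a firm one. With DESeq2, and in all 6 fits that left out 1 of the libraries compared, Adgre1 no longer passed (adjusted p from 0.0314 to 0.116 over 13 alternatives), while its log2 fold change stayed between -0.59 and -0.47. With WT the Adgre1 difference was -0.40 (95% interval -0.72 to -0.08, adjusted p = 0.139), and with K815R it was -0.26 (-0.57 to 0.05, adjusted p = 0.469). The 3 forms were not shown to differ for Adgre1, with K815R against the libraries labelled K815Q at 0.28 (-0.05 to 0.62, adjusted p = 0.531). Only 37 to 78 reads per library stand behind these values, and the replicates scattered less than counting error alone gives (chi-square per degree of freedom 0.349 over 8 degrees of freedom). In RefSeq the gene overlaps Hspa14-ps1 and LOC103690497, and the strand setting of the counting is not given in the sources used here, so reads shared with those entries cannot be separated.

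The level of Adgre1 relative to the other markers moved in the same direction. It made up 4.81% to 5.64% of the reads of the 10 markers in the LacZ libraries, 3.30% to 3.69% with WT, 3.24% to 3.94% with K815R and 2.81% to 3.11% in the libraries labelled K815Q. The exact Clopper-Pearson 95% interval ran from 4.39% to 7.12% in LacZ replicate 2, where the share was highest, and from 1.99% to 3.85% in the library labelled K815Q with the lowest share. All 3 LacZ shares lay above all 9 others, and the intervals cover counting error only. LacZ replicate 2, low for most markers, had 2.94 CPM of Adgre1, the lowest of the 3 control values. That was still above every library labelled with a KAT6A virus.

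**Figure D1:**
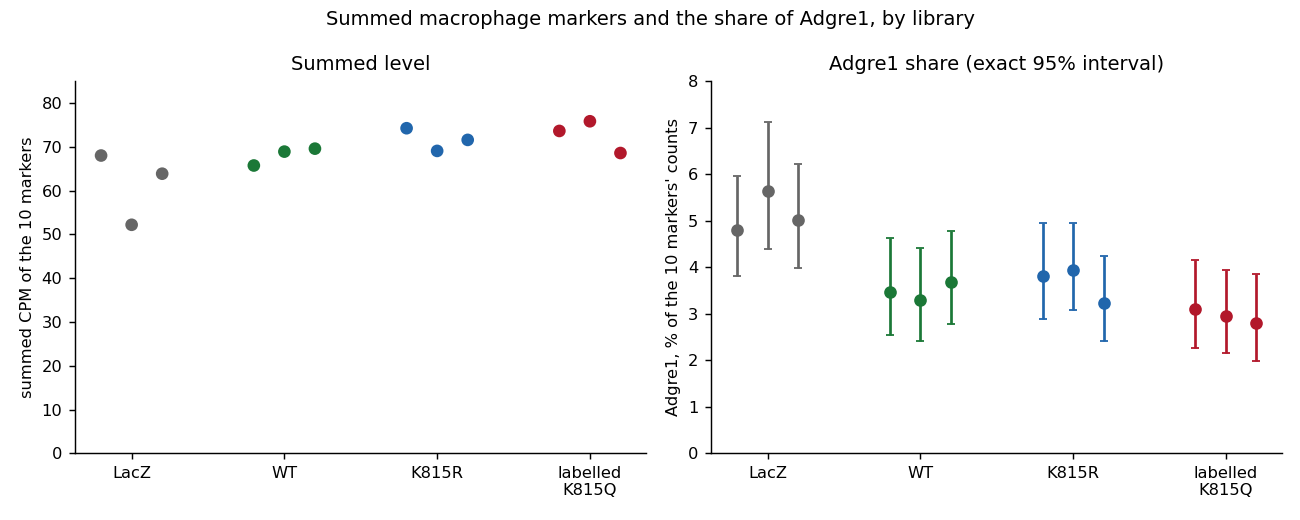
Left, the summed level of the 10 macrophage markers (CPM) in each of the 12 libraries, by group; right, the percent of the 10 markers' reads that belong to Adgre1, with exact 95% binomial intervals. The sums run from 52.2 CPM (LacZ replicate 2) to 75.8 CPM. The Adgre1 share is 4.81% or more in each LacZ library and 3.94% or less in each library labelled with a KAT6A virus.

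Mrc1, the gene of the mannose receptor CD206, a lectin of the endocytic surface, showed the opposite order. Its level was 17.6, 12.1 and 17.7 CPM in LacZ, 18.0, 19.6 and 20.5 CPM with WT, 21.2, 19.8 and 20.4 CPM with K815R, and 21.1, 20.6 and 18.4 CPM in the libraries labelled K815Q. All 9 libraries labelled with a KAT6A virus exceeded all 3 LacZ libraries, an ordering seen for 2.23% of all genes tested. Even so, the WT value of 18.0 is close to the LacZ value of 17.7. Against LacZ the log2 fold change was 0.29 with WT (SE 0.11, adjusted p = 0.145), 0.37 with K815R (SE 0.11, adjusted p = 0.0883) and 0.34 under the K815Q label (SE 0.11, adjusted p = 0.0679).

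None of these Mrc1 differences passed the test by edgeR, and they lean on 1 control library. Without LacZ replicate 2 they were 0.13, 0.21 and 0.18, and with no filter on low counts all 3 were called (adjusted p = 0.0355, 0.00254 and 0.00547). DESeq2 called the difference in the libraries labelled K815Q (adjusted p = 0.0498). Mrc1 varied more between replicates than any other marker relative to counting error (chi-square per degree of freedom 4.79). It overlaps Mir511 and LOC134482611 in RefSeq.

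Cd163 encodes the scavenger receptor for haemoglobin bound to haptoglobin, and it had the fewest reads of the 10, from 16 to 52 per library. LacZ replicates 1 to 3 held 2.18, 0.713 and 1.43 CPM, the WT libraries 1.67, 2.69 and 1.90 CPM, the K815R libraries 1.96, 2.01 and 1.63 CPM, and those labelled K815Q 2.13, 2.29 and 1.51 CPM. The groups overlapped in every comparison with LacZ. The log2 fold change with WT was 0.52, with an interval from -0.09 to 1.12 (adjusted p = 0.353), and it was 0.20 without LacZ replicate 2.

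Cd68, the gene of a glycoprotein of lysosomes and endosomes, averaged 15.2 ± 2.52 CPM in LacZ (SD, n = 3), 16.1 ± 0.894 with WT, 16.7 ± 1.08 with K815R and 18.8 ± 1.58 in the libraries labelled K815Q. The single libraries labelled K815Q held 17.1, 20.2 and 19.1 CPM against 17.2, 12.3 and 15.9 CPM in LacZ, so that these groups overlapped. Cd68 was 0.31 higher there on the log2 scale (95% interval 0.10 to 0.52, adjusted p = 0.0595). It was called with no filter on low counts (adjusted p = 0.0127) and without LacZ replicate 1, and was 0.18 without LacZ replicate 2.

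Csf1r, the receptor for the growth factors CSF1 and IL-34, had even control values of 8.46, 7.89 and 8.03 CPM. It held 8.87, 10.3 and 11.2 CPM with WT, 8.76, 8.51 and 9.35 CPM with K815R, and 10.2, 9.24 and 8.28 CPM in the libraries labelled K815Q. The WT and K815R libraries lay above all 3 LacZ libraries, and 1 library labelled K815Q did not. With WT the difference was 0.32 (95% interval 0.10 to 0.53, adjusted p = 0.0760), which passed only in the fit without WT replicate 1 (adjusted p = 0.0383).

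**Figure D2:**
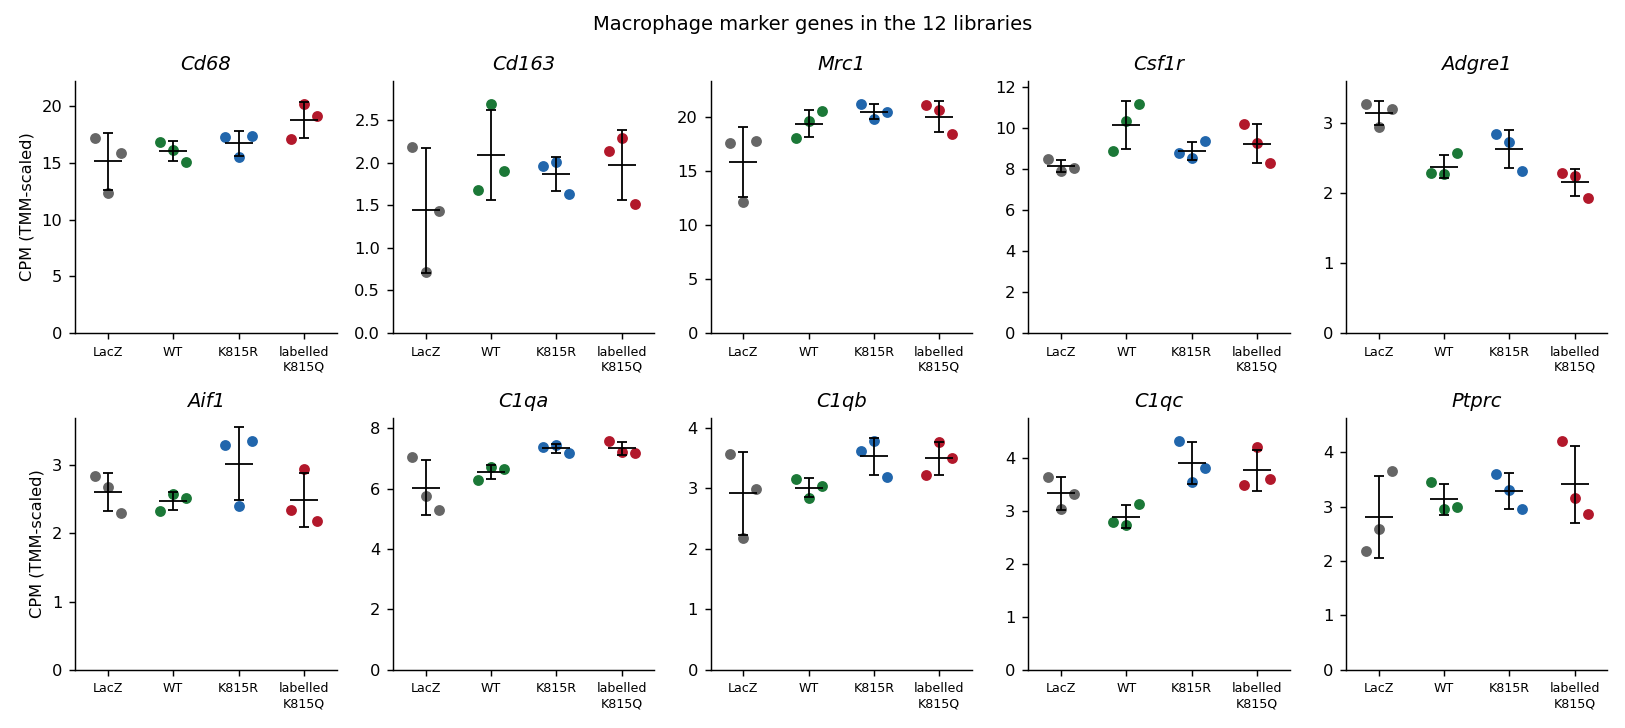
Level of each of the 10 macrophage markers (CPM, TMM-scaled, linear axes from 0) in the 12 libraries; each point is 1 library, the long bar is the group mean and the whiskers are 1 SD (n = 3). All libraries labelled with a KAT6A virus lie below the LacZ libraries for Adgre1 and above them for Mrc1. The low LacZ point for Cd68, Cd163, Mrc1 and C1qb is LacZ replicate 2.

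The 3 chains of C1q, the recognition protein that starts the classical complement pathway and that macrophages make in large part, had one feature in common. All 3 genes were higher with K815R and in the libraries labelled K815Q than with WT, with no overlap between the libraries compared. Such a gap upwards was seen for 3 of the 10 markers with K815R against WT and for 4 in the libraries labelled K815Q against WT (the C1q chains and Cd68), beside 9.49% and 9% of all genes. C1qa held 6.29, 6.72 and 6.65 CPM with WT, 7.37, 7.45 and 7.17 CPM with K815R, and 7.59, 7.21 and 7.19 CPM in the libraries labelled K815Q. C1qb averaged 3.01 ± 0.153 CPM with WT, 3.52 ± 0.311 with K815R and 3.49 ± 0.267 in the libraries labelled K815Q (SD, n = 3).

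C1qc had the largest fold changes of the 3 against WT. It was at 2.79, 2.74 and 3.14 CPM with WT against 4.33, 3.55 and 3.81 CPM with K815R and 3.48, 4.21 and 3.60 CPM in the libraries labelled K815Q. Its log2 fold change was 0.42 for K815R against WT (95% interval 0.12 to 0.72, adjusted p = 0.151) and 0.38 for the libraries labelled K815Q against WT (0.07 to 0.69, adjusted p = 0.229). For C1qa both differences were 0.16, and for C1qb they were 0.23 and 0.21, with every interval including 0. None was called. The LacZ libraries held 3.64, 3.03 and 3.32 CPM of C1qc, 7.04, 5.75 and 5.29 CPM of C1qa, and 3.56, 2.18 and 2.99 CPM of C1qb. For C1qa all 3 lay below every library with K815R or labelled K815Q, and for C1qb and C1qc they overlapped with both. Against LacZ, C1qc with WT was -0.21 (adjusted p = 0.490), whereas C1qa was 0.28 with K815R (95% interval 0.06 to 0.51, adjusted p = 0.212) and 0.28 in the libraries labelled K815Q (0.05 to 0.51, adjusted p = 0.117). The intervals of the third comparison, K815R against the libraries labelled K815Q, were centred at 0.00, 0.01 and 0.04 for C1qa, C1qb and C1qc, and the widest reached from -0.31 to 0.34.

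Aif1, the gene of the actin-binding protein Iba1, had no clear order. Its level was 2.85, 2.67 and 2.29 CPM in LacZ, 2.33, 2.58 and 2.52 CPM with WT, 3.30, 2.40 and 3.36 CPM with K815R, and 2.34, 2.95 and 2.19 CPM in the libraries labelled K815Q. The groups overlapped in all 6 comparisons. Against LacZ its log2 fold changes were -0.07, 0.20 and -0.06 with WT, with K815R and in the libraries labelled K815Q.

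Ptprc held 2.18, 2.58 and 3.65 CPM in LacZ, 3.45, 2.95 and 2.99 CPM with WT, 3.61, 3.31 and 2.95 CPM with K815R, and 4.21, 3.15 and 2.87 CPM in the libraries labelled K815Q. Its groups overlapped in all 6 comparisons as well. The lowest LacZ value came from replicate 1 here, not from replicate 2. The log2 fold changes against LacZ were 0.15, 0.22 and 0.28 in that order of forms, and each interval included 0.

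Across the 10 markers, edgeR's quasi-likelihood test called 0 with WT and 0 with K815R against LacZ, where it called 5.34% and 2.47% of all genes, and DESeq2 also called 0 in each. At an unadjusted p under 0.05 there were 3, 2 and 4 of the 10 markers with WT, with K815R and in the libraries labelled K815Q, beside 19.1%, 13.8% and 24.2% of all genes. Between the forms 0 markers were called by either tool in the 3 comparisons, which called 2.2% (K815R against WT), 1.07% (the libraries labelled K815Q against WT) and 0.363% (K815R against the libraries labelled K815Q) of all genes. In the same order 1, 2 and 0 of the 10 had an unadjusted p under 0.05, beside 13.8%, 14.4% and 11.4% of all genes. Tested for any difference over all groups at once, 8.13% of all genes were called and 0 markers by either tool, with 6 of the 10 at an unadjusted p under 0.05 beside 24.6% of all genes. The lowest adjusted p values of that test were 0.0942 for Adgre1 and 0.0998 for Mrc1.

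Taking the 10 as a list, the median log2 fold change against LacZ was 0.10 with WT, 0.22 with K815R and 0.27 in the libraries labelled K815Q, while the median of all genes tested was 0.01, 0.00 and 0.01. The fold change was above 0 for 7, 9 and 8 of the 10, beside 52.4%, 51.2% and 51.7% of all genes. Without LacZ replicate 2 the medians were 0.02, 0.13 and 0.15. The summed level of the 10 was 68.0, 52.2 and 63.8 CPM in LacZ, 65.7, 68.9 and 69.6 CPM with WT, 74.2, 69.1 and 71.6 CPM with K815R, and 73.6, 75.8 and 68.6 CPM in the libraries labelled K815Q. LacZ replicate 1 lay inside the range of the WT libraries and below every K815R and K815Q-labelled library. Groups did not overlap for 3, 4 and 3 of the 10 in the 3 comparisons with LacZ, beside 24.6%, 18.7% and 28.4% of all genes.

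**Figure D3:**
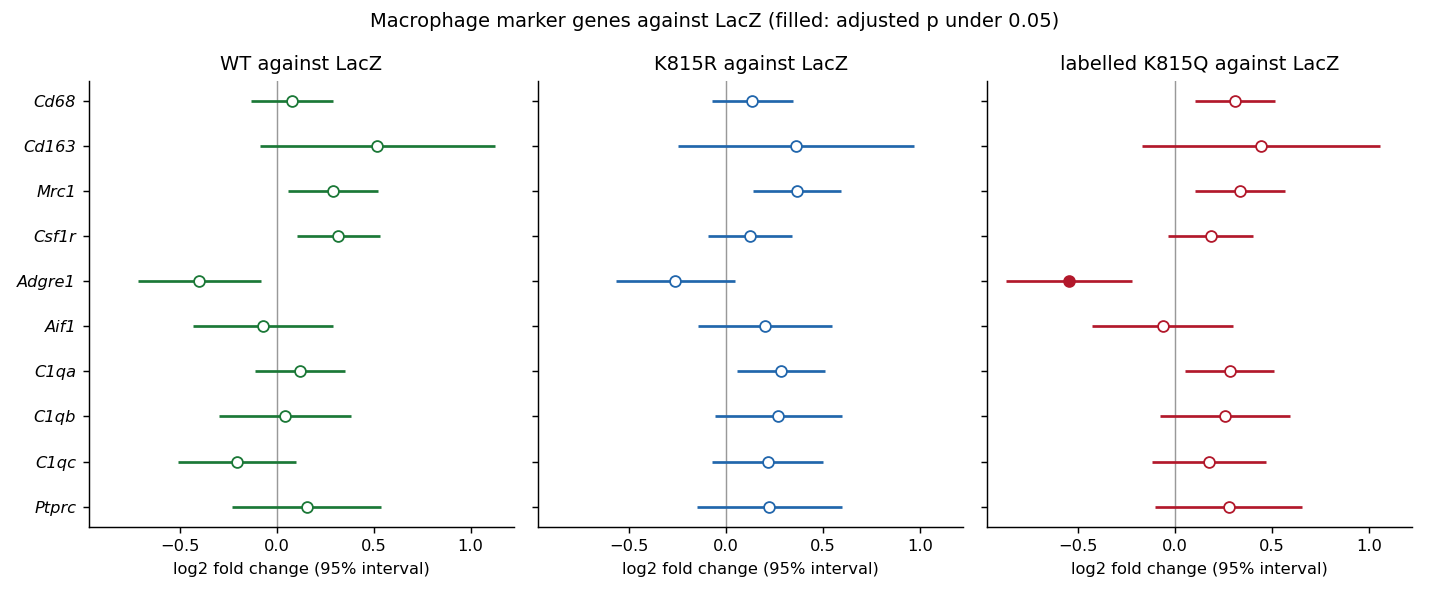
Log2 fold change of each macrophage marker against LacZ with its 95% interval, for WT, K815R and the libraries labelled K815Q; filled points have an adjusted p under 0.05 (edgeR's quasi-likelihood test). Only Adgre1 in the libraries labelled K815Q is filled, at -0.54, and the intervals of Cd163 are the widest, reaching 1.12 with WT.

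Among themselves the markers varied together only in part, as described by correlations of log2 CPM over the 12 libraries, which share depth scaling and the 4 groups. Over 45 pairs the median Pearson r was 0.20 and 36 pairs were positive. Cd163 with Mrc1 had the highest r, 0.85, and Cd68 with C1qb followed at 0.79. LacZ replicate 2 was the lowest of the 12 libraries for Cd163, Mrc1, Cd68 and C1qb. By rank (Spearman's rho) the same pairs had 0.43 and 0.57. The closest pairs by rank were C1qa with C1qb (0.80) and C1qb with C1qc (0.78). Against the mean profile of the other 9 markers, Mrc1 (0.88), C1qb (0.77) and Cd163 (0.73) were closest and Ptprc (0.17) was far. Adgre1 had an r of -0.36 with that profile, but 0.60 once each group's mean was subtracted.

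Of all genes outside the list with a mean of at least 1 CPM, those most like the mean profile of the markers over the 12 libraries were Tle3 (r = 0.94), Cd33 (0.89), Mcemp1 (0.89), Rnf225 (0.88), Ell3 (0.86), Mex3b (0.86), Gpc3 (0.86), F2r (0.85), Trem1 (0.85) and Fcer1g (0.85). Cd33, Mcemp1, Trem1 and Fcer1g are known as genes of myeloid cells. These values were picked as the highest of all such genes, so they describe these libraries only.

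A ligand of Csf1r was lower in every group labelled with a KAT6A virus. Csf1, the macrophage growth factor, held 97.2, 103 and 106 CPM in LacZ, 79.1, 76.9 and 79.7 CPM with WT, 78.4, 77.1 and 75.5 CPM with K815R, and 83.6, 78.7 and 78.2 CPM in the libraries labelled K815Q. No library labelled with a KAT6A virus reached the lowest LacZ value, an ordering seen for 3.53% of all genes tested. Csf1 fell by 0.38 (adjusted p = 5.8e-05), 0.41 (4.69e-05) and 0.35 (1.17e-04) on the log2 scale, and the call held in every alternative run. Il34, the other ligand, was tested and not called, and Csf2 and Csf3 did not reach the filter.

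A wider list of 41 myeloid receptors, adaptors and lysosomal genes, 35 of them tested, held more calls. With WT 10 were called higher and 4 lower, with K815R 2 higher and 2 lower, and in the libraries labelled K815Q 13 higher and 2 lower. Of all genes tested, 1.95% were higher and 3.39% lower with WT, 0.74% and 1.74% with K815R, and 2.87% and 4.98% under the K815Q label. The medians of the list were 0.32, 0.17 and 0.22. Without LacZ replicate 2 the calls dropped to 2 higher and 1 lower with WT, 0 in either direction with K815R, and 5 higher and 1 lower in the libraries labelled K815Q, with medians of 0.23, 0.15 and 0.23. In the fits without LacZ replicate 3 the higher calls were 5, 0 and 8.

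Trem2, a lipid-sensing receptor of macrophages, held 2.85, 2.05 and 2.09 CPM in LacZ and 4.73, 5.54 and 3.86 CPM in the libraries labelled K815Q, a rise of 1.01 on the log2 scale (SE 0.19, adjusted p = 0.00186). With WT it rose by 0.81 (adjusted p = 0.0133), and with K815R it was 0.50 higher without passing (adjusted p = 0.221). Mmp12, the macrophage elastase, averaged 27.0 ± 5.59 CPM in LacZ, 48.0 ± 4.87 with WT, 38.3 ± 2.77 with K815R and 47.3 ± 3.17 in the libraries labelled K815Q (SD, n = 3). With WT it rose by 0.83 (adjusted p = 0.0038), and under the K815Q label by 0.81 (adjusted p = 0.00413). Laptm5, a lysosomal membrane protein of blood cells, rose by 0.47 and 0.52, and Gpnmb, a glycoprotein of lysosome-related organelles, by 0.44 and 0.36, in the same 2 comparisons. Gpnmb averaged 402 CPM over all libraries, against 16.7 CPM for Cd68, and the part of other cells in it was not tested. Lyz2, a lysozyme gene, rose in all 3 comparisons with LacZ, by 0.33, 0.33 and 0.48. Lyz2 has a close relative in rodents, and how shared reads were counted is not given in the sources used here. LacZ replicate 2 was the lowest control library for Trem2, Lyz2, Mmp12 and Gpnmb. With each library left out in turn, the rises with WT ranged from 0.70 to 0.99 for Trem2 and 0.67 to 0.96 for Mmp12. They ranged from 0.24 to 0.43 for Lyz2 and 0.36 to 0.52 for Gpnmb. With WT the calls of Trem2 and Lyz2 were each lost in 4 of 13 alternatives, that of Laptm5 in 2 and that of Mmp12 in 1. The call of Lyz2 with K815R was lost in 5.

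Fcgr3a, an Fc receptor gene for IgG, was called lower against LacZ in all 3 comparisons. Adgre1 was called lower only in the libraries labelled K815Q. Fcgr3a held 4.48, 5.62 and 4.79 CPM in LacZ, 2.84, 1.86 and 2.66 CPM with WT, 3.09, 3.23 and 3.04 CPM with K815R, and 1.92, 2.18 and 1.88 CPM in the libraries labelled K815Q. It fell by 1.01 (adjusted p = 2.62e-04), 0.66 (0.0123) and 1.31 (2.24e-05) on the log2 scale, and the call with K815R was lost in 3 of 13 alternatives. Fc receptor genes resemble each other, so reads may be shared among them. The other genes called lower in the list were Siglec1, Gas6 and Pla2g7 with WT, Gas6 with K815R and Siglec1 in the libraries labelled K815Q, named here after their values were seen. Siglec1, the sialic acid receptor CD169 and a gene known to respond to interferon, fell by 0.87 with WT and 1.05 in the libraries labelled K815Q.

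Genes of the type I interferon response were called lower against LacZ as well. Of 26 listed, 23 were tested, and 23, 22 and 23 were called lower with WT, with K815R and in the libraries labelled K815Q, beside 3.39%, 1.74% and 4.98% of all genes. Their summed level was 635 to 1011 CPM in the LacZ libraries, 158 to 266 with WT, 237 to 306 with K815R and 149 to 179 in the libraries labelled K815Q, without overlap of LacZ with the others. Their part in the lower Adgre1, Fcgr3a and Siglec1 was not tested.

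**Figure D4:**
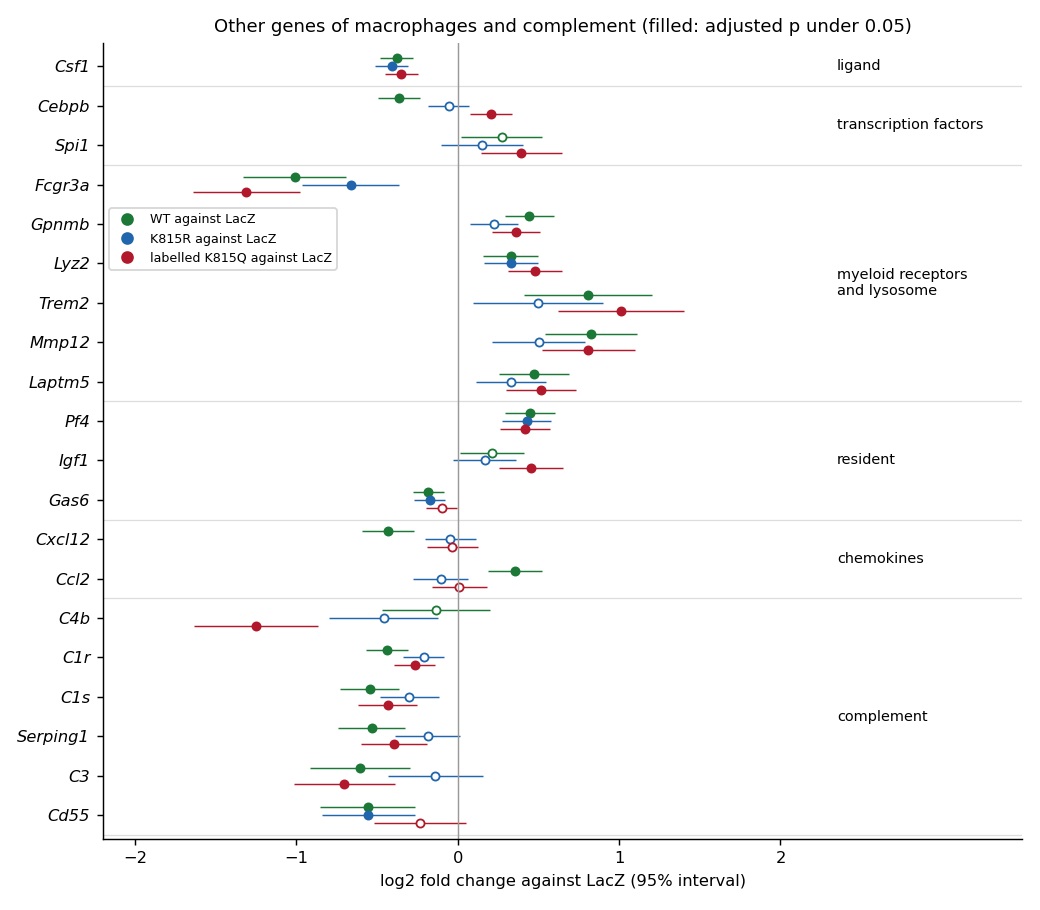
Log2 fold change against LacZ with its 95% interval for genes of the macrophage and complement lists, grouped by role; green is WT, blue K815R and red the libraries labelled K815Q, and filled points have an adjusted p under 0.05. Csf1 and Fcgr3a lie below 0 and Pf4 and Lyz2 above 0 with filled points in all 3 comparisons, while C4b is filled only in the libraries labelled K815Q.

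Of 11 genes linked to resident macrophages, 9 were tested, Mrc1 and Cd163 among them. Pf4, a chemokine of platelets and resident macrophages, held 24.5, 20.7 and 22.0 CPM in LacZ, 28.9, 31.2 and 31.5 CPM with WT, 31.7, 28.1 and 30.7 CPM with K815R, and 32.0, 29.4 and 28.3 CPM in the libraries labelled K815Q. All libraries labelled with a KAT6A virus were above all LacZ libraries, an ordering seen for 2.23% of all genes tested. Pf4 rose by 0.45, 0.43 and 0.42 on the log2 scale (adjusted p = 6.14e-04, 0.00172 and 0.00124), also without LacZ replicate 2. Ppbp, another chemokine gene of platelets, had at most 2 reads in a library. Igf1, a growth factor that stromal cells also express, rose by 0.45 in the libraries labelled K815Q (adjusted p = 0.00673). Gas6, a bridging ligand for the uptake of dying cells, fell by 0.18 with WT and 0.17 with K815R, calls lost in 3 and 9 of 13 alternatives.

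Among 8 macrophage transcription factors, 7 were tested. Spi1, the gene of PU.1, was called higher in the libraries labelled K815Q (0.39, adjusted p = 0.0465), a call lost in 7 of 13 alternatives. Cebpb, which other heart cells express as well, fell by 0.37 with WT and rose by 0.21 in the libraries labelled K815Q, the latter call being lost in 5 of 13 alternatives. It was higher than with WT by 0.31 with K815R (adjusted p = 0.0112) and by 0.57 in the libraries labelled K815Q (adjusted p = 4.09e-05).

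Few genes that mark recruited or activated macrophages passed the filter. Of 9 genes of monocyte-derived macrophages 3 were tested, Itgax, Fn1 and Vcan. Against LacZ 0 were called with WT, with K815R or under the K815Q label, beside 5.34%, 2.47% and 7.85% of all genes. These 3 genes averaged 4.04, 2330 and 184 CPM over all libraries, against 16.7 CPM for Cd68. The part of other cells in Fn1 and Vcan was not tested. Of 10 alternative activation genes 6 were tested, and 1 was called against LacZ, lower under the K815Q label, where 4.98% of all genes were called lower. It was Tgm2, a transglutaminase gene that other heart cells also express. Tgm2 fell by 0.17 there (adjusted p = 0.0398), a call lost in 7 of 13 alternatives. Cx3cr1 had at most 1 read in a library, and Tnf and Retnla had 0 reads in all 12. Of 10 inflammatory genes 4 were tested, and edgeR and DESeq2 each called 0 against LacZ, with 0, 1 and 3 at an unadjusted p under 0.05 by edgeR for WT, K815R and the libraries labelled K815Q, beside 19.1%, 13.8% and 24.2% of all genes. Without LacZ replicate 1, and again without LacZ replicate 3, 6 of the 10 were tested and 1 was called lower in the libraries labelled K815Q. Il6, a cytokine, averaged 1.53 ± 0.329 CPM in LacZ, 1.28 ± 0.122 with WT, 1.08 ± 0.169 with K815R and 0.839 ± 0.436 in the libraries labelled K815Q (SD, n = 3). Of 12 chemoattractant and receptor genes 9 were tested. With WT 1 was called higher and 1 lower against LacZ, beside 1.95% and 3.39% of all genes. With K815R and under the K815Q label 0 were called against LacZ. Ccl2 rose by 0.35 with WT (adjusted p = 0.0151) and fell by 0.46 with K815R relative to WT. Cxcl12 fell by 0.43 with WT, and was higher than with WT by 0.38 with K815R and by 0.40 in the libraries labelled K815Q. The call of Ccl2 against LacZ, and that of Cxcl12 in the libraries labelled K815Q, were each lost in 4 of 13 alternatives.

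Several complement components that act with C1q were called lower against LacZ, while its chains were not called. The chains and the other components were not tested against each other. Of 16 genes of the classical cascade 14 were tested, the C1q chains included, and each of the genes called was lower: 5 with WT, 1 with K815R and 6 in the libraries labelled K815Q. Of all genes tested, 3.39%, 1.74% and 4.98% were called lower. C1r and C1s, the proteases that bind to C1q, fell with WT by 0.44 and 0.55 (adjusted p = 1.29e-04 and 0.00171) and in the libraries labelled K815Q by 0.27 and 0.43. With K815R they were -0.21 and -0.30, without passing (adjusted p = 0.0757 and 0.0883). C1s held 160, 191 and 149 CPM in LacZ against 109, 125 and 108 CPM with WT, 134, 137 and 135 CPM with K815R, and 129, 129 and 112 CPM in the libraries labelled K815Q. As for the C1q chains, the K815R values of C1s lay above all WT values, while those labelled K815Q overlapped with WT.

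Serping1, the C1 inhibitor, fell by 0.53 with WT and 0.40 in the libraries labelled K815Q, and C3, the central component, by 0.61 and 0.70. Cd55, an inhibitor on the cell surface, fell by 0.56 with WT and 0.55 with K815R. The calls of C3 were lost in 3 and 2 of 13 alternatives, those of Cd55 in 5 and 7, and that of Serping1 in the libraries labelled K815Q in 4. C4b fell by 1.25 in the libraries labelled K815Q (adjusted p = 1.69e-04), where it held 1.77, 1.32 and 1.30 CPM against 3.31, 4.14 and 3.03 CPM in LacZ. It was also lower there than with WT, by 1.12 (adjusted p = 0.00384). C4b has a near-identical relative in C4a, so its reads are uncertain. Without LacZ replicate 2 the complement genes called lower numbered 4, 0 and 3. Fibroblasts and other stromal cells also express these genes. The 10 fibroblast markers summed to 11903 to 12777 CPM in LacZ, 11048 to 12095 CPM with WT, 11149 to 11586 CPM with K815R and 11990 to 12889 CPM in the libraries labelled K815Q. The K815R sums thus lay wholly below LacZ, and the other groups overlapped with it. Most of these sums came from Col1a1 and Col3a1, which averaged 7813 and 3122 CPM over all libraries. With K815R the median log2 fold change of the 10 against LacZ was -0.007, and 0 were called, beside 2.47% of all genes. Single markers were called in both directions: Pdgfra, a growth factor receptor gene, fell by 0.36 with WT (adjusted p = 0.00109), while Postn, a matrix protein gene, rose by 0.35 with WT and by 0.20 under the K815Q label, where the transcription factor gene Tcf21 rose by 0.53. The part of fibroblasts in the complement values was not tested.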

How the data were processed

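Poly(A)-selected RNA of 12 libraries was sequenced, per the labels' protocols, from strand-specific libraries. The labels call the libraries paired-end but the run single-read. The submitters' processing notes name Trimmomatic 0.39, HISAT2 2.2.1, HTSeq 0.6.1, edgeR and the build Rnor_6.0. Neither the gene annotation nor HTSeq's strand setting is given in the sources used here. The authors deposited raw read counts per gene in 1 table, with Ensembl identifiers and symbols. Its lines that name no gene stayed out of library sizes: 11.7% to 12.9% of reads lay in no feature, 25.6% to 26.9% aligned to several places, at most 0.50% were ambiguous and at most 3.06% were not aligned.

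Groups and replicate numbers came from the sample titles. Genes were kept by edgeR's filterByExpr (minimum count 10, minimum total count 15). All 12 libraries entered 1 group-means model with TMM scaling and a robust quasi-likelihood test (edgeR 4.0.16, limma 3.58.1, R 4.3.3). The 6 pairwise comparisons and the test for any difference were adjusted by Benjamini-Hochberg over the 14063 genes, and a gene was called below 0.05. The biological coefficient of variation over all genes was 0.0581. Replicates of a group differed beyond sampling noise (chi-square per degree of freedom 4.54 to 8.74), so that no library was counted as a copy. CPM were computed with the TMM factors, fold changes with a prior count of 2, and intervals cover counting or replicate error as named. The pipeline was tested on simulated data. The members and the lists were chosen with earlier results of these data known. The rule for naming genes took all 10 markers, Kat6a and Prkaa2. It added up to 6 called genes of each other list in order of the test for any difference (up to 3 by level where none was called). It also took the 10 genes most like the markers, leaving out symbols that are clone or locus identifiers. Not every gene so picked is printed, and none is from the interferon, cardiomyocyte, endothelial, smooth muscle or cell cycle lists. Some genes outside the rule are named too, such as Siglec1 and Cx3cr1. The alternatives were scaling by RLE or by upper quartile, testing without a filter or with a stricter one (10 counts in every library), the use of DESeq2 1.42.0, a replicate block, only the 6 libraries compared, and each library left out. Leaving out a LacZ library for the wider lists, and DESeq2 for them, were chosen after seeing the data. Promoters and gene overlaps are from RefSeq (GRCr8), matched by symbol.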

Additional observations from a re-analysis of the deposited data

How the results depend on the processing

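The count of markers called was the same as reported under RLE and upper-quartile scaling, the stricter filter, DESeq2, the replicate block and the fits of only 6 libraries, although DESeq2 called Mrc1 and not Adgre1. With no filter on low counts 1, 1 and 3 markers were called with WT, with K815R and in the libraries labelled K815Q against LacZ, and 2 for any difference. Leaving out 1 library gave 0 to 1 with WT (1 being Csf1r, without WT replicate 1) and 0 to 3 in the libraries labelled K815Q (3, without LacZ replicate 1, were Cd68, Mrc1 and C1qa). These fold changes against LacZ, none of them called, changed sign with 1 library left out: Cd68 with WT (-0.048 to 0.18), C1qb with WT (-0.12 to 0.21), Ptprc with WT (-0.00089 to 0.39) and Aif1 in the libraries labelled K815Q (-0.20 to 0.022).

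Over all genes, the calls without a filter were 600 (K815R against LacZ), 553 (K815R against WT), 423 (the libraries labelled K815Q against WT), 307 (K815R against those labelled K815Q) and 2036 (any difference). For K815R against the libraries labelled K815Q they were 105 with DESeq2 and 85 with only 6 libraries, against 51. With 1 library left out they were 378 to 639 (WT), 173 to 308 (K815R) and 360 to 1182 (labelled K815Q) against LacZ, 124 to 177 for K815R against WT, 50 to 146 for labelled K815Q against WT, 11 to 98 between the mutants and 650 to 1309 for any difference. The cause of these moves was not tested. The fits with a library left out also hold fewer libraries.

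The replicate numbers did not pair the libraries: same-numbered libraries had a mean correlation of deviations of -0.0022 over 18 pairs, 1 of them over 0.1, and 1 of 12 libraries correlated best with its own number. With the replicate block, 232 genes were called for the libraries labelled K815Q against WT and 86 between the mutants, and no call of a marker changed.

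Depth limits the low genes: counting error alone was 16.0% of the level for Cd163 and 13.4% for Adgre1, against 4.99% for Mrc1.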
